A study of Mus musculus with 6 samples.

Results

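The ectodysplasin and NF-κB pathway was followed in the inner enamel epithelium (IEE) of the mandibular first molar through 10 genes, which were chosen by name as the ligand, receptor and adaptor of the ectodysplasin branch and the core of the NF-κB branch. All 10 were found in the deposited table of 18152 genes, and all 10 passed the filter on low counts. The libraries came from mouse embryos at E18.5, from a C57BL/6J background, with 3 libraries of Kdf1 fl/fl embryos (control) and 3 of K14-Cre;Kdf1 fl/fl embryos (knockout). The labels call the controls wild type, but the study's methods give them as Kdf1 fl/fl, so both groups carry floxed Kdf1 alleles and only the knockout carries the Cre transgene, which the keratin 14 promoter drives in epithelium. The IEE was cut from frozen head sections by laser capture microdissection, in which an area is excised under a microscope. The labels name the 3 libraries of a group as biological replicates, but the sources used here do not say whether 1 embryo or several gave each library.

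Ectodysplasin A, encoded by Eda, is a ligand of the tumour necrosis factor family that controls the development of teeth, hair and glands. It binds the receptor encoded by Edar, which recruits the adaptor encoded by Edaradd, and TRAF6 and the IκB kinase (IKK) complex then act downstream. IKK marks IκBα, encoded by Nfkbia, for destruction, and this frees NF-κB dimers such as p50 and RelA to enter the nucleus. Nfkbia is itself a well-known target of NF-κB, so its transcript is part of a negative feedback loop. In mice and humans, loss of the ligand, the receptor or the adaptor gives hypohidrotic ectodermal dysplasia, in which teeth are missing or misshapen.

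Kdf1, the deleted gene, was read at 836, 731 and 835 counts in the 3 control libraries and at 0, 1 and 0 counts in the knockout libraries, as the labels state. Library totals were 16256590 to 16675133 counts in controls and 14713918 to 15665323 in knockouts, and a count of 0 allows up to 0.182 to 0.198 CPM (counts scaled to an equal library size), which covers counting error only. Dental epithelium markers were detected in every library, but their summed level was 9614 to 15175 CPM in controls and 6444, 6094 and 10369 CPM in knockouts 1, 2 and 3. Of 11 tested, 10 were lower on average in the knockout. At an unadjusted p of at most 0.05 in edgeR, 6 were lower and 0 higher, against 11.6% and 13.0% of all genes tested. Cdh1 passed the study's criterion, at -1.50 on the log2 scale with an adjusted p of 0.0498 by edgeR. Summed papilla and mesenchyme markers were at 4070 to 21737 CPM in controls and 12180 to 13295 CPM in knockouts, sums that the collagen genes Col1a1 and Col1a2 dominate. Gene by gene at an unadjusted p of at most 0.05 in edgeR, 6 of the 11 papilla and mesenchyme markers were higher in the knockout and 0 lower. Among all genes tested these shares were 13.0% and 11.6%. The median log2 fold change over the list was 0.82. Twist1 passed the study's criterion (2.23 on the log2 scale, adjusted p 0.0498 by edgeR), and Prrx1, Col3a1 and Msx1, named after their values were seen, had log2 fold changes of 2.59, 2.32 and 1.49. Of the 11, 7 were higher and 4 lower on average in the knockout. The lower ones were Col1a2, Col1a1, Sp7 and Dcn, with log2 fold changes of -0.53, -0.46, -0.10 and -0.05. Summed immune markers were at 37.9 to 79.2 CPM in controls and at 241, 105 and 65.8 CPM in knockouts 1, 2 and 3, and summed endothelium markers were at 323 to 401 and at 1070, 636 and 365 CPM. Of the immune markers 7 of 10, and of the endothelium markers 4 of 9, were higher at an unadjusted p of at most 0.05 in edgeR, and 0 were lower. At this limit 13.0% of all genes tested were higher and 11.6% lower. No tested marker was at 0 in any library. Knockout 1 therefore stood apart in immune and endothelium markers, and knockout 3 had the highest epithelium sum of the knockouts. Of the 11 papilla and mesenchyme markers, 5 were highest in knockout 1, 4 in control 2 and 2 in knockout 2. Of all genes tested, 20.5%, 5.17% and 18.4% were highest in these libraries. In these bulk samples, fewer cells of a type and less RNA per cell cannot be told apart.

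The 250 bases before the transcription start site are shown for the 2 genes whose groups did not overlap, Edar and Nfkbia, and for Nfkb2, the other gene with a match to the κB consensus, the DNA motif that NF-κB dimers bind. The sequences are RefSeq promoter windows of mouse build GRCm38.p6, read along the gene's strand with the start site just past the last base, and capitals mark matches to the consensus on either strand. The windows lie at chr10:58675697-58675946 on the minus strand for Edar, at chr12:55492648-55492897 on the minus strand for Nfkbia, and at chr19:46304487-46304736 on the plus strand for the first of 3 start sites of Nfkb2.
Edar: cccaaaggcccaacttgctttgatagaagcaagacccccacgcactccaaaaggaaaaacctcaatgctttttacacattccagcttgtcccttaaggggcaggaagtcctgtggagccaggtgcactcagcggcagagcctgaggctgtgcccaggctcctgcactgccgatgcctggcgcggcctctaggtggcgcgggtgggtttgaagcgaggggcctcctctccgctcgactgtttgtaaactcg
Nfkbia: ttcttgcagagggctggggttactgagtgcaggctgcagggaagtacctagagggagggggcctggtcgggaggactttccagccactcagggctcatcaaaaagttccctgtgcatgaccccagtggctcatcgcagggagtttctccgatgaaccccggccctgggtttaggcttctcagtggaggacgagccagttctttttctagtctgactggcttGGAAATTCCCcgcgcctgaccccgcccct
Nfkb2: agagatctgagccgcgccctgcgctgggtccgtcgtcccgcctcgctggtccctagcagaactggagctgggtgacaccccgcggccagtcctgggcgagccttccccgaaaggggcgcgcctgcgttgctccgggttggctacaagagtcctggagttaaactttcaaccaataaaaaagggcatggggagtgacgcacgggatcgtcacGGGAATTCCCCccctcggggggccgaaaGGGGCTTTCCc

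The Nfkbia match began 29 bases before the start site. In Nfkb2, matches began 39, 38 and 11 bases before the first start site, of which the former pair overlap each other. The windows of the other Nfkb2 start sites held 1 match each, 236 and 225 bases before them. The Edar window held none, which says only that these letters are not in this stretch. Windows were at hand for 8 of the 10 genes, with none for Nfkb1 and Ikbkb, and Eda, Edaradd, Traf6, Ikbkg and Rela also had no match. Over all 32851 windows of 250 bases in the same table, 7.25% held the consensus. Counted by gene, 8.23% of 27025 genes held it in at least 1 window, beside 2 of the 8 genes here. A match is a description of the letters and not a measured binding site.

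Of the 10 genes, Edar and Nfkbia were higher in all 3 knockout libraries than in any control library, and the other 8 had overlapping groups. Edar, the receptor, was 3.54-fold higher (95% interval 1.70 to 7.37) and Nfkbia, the inhibitor, was 1.52-fold higher (1.26 to 1.84). Neither passed the test across all genes, which was the quasi-likelihood test of edgeR with p values adjusted by the Benjamini-Hochberg method. The study's criterion asks for an adjusted p no higher than 0.05 together with a log2 fold change of 1 or more in size. With these limits edgeR called 0 of the 10 genes and 61 (0.432%) of 14131 genes tested. With the adjusted p alone it called 0 of the 10 and 77 (0.545%) of all. DESeq2 with both limits called 980 of 14127 genes, so the number called depended on the test. The sources used here do not name the test to which the study applied its limits. The edgeR calls therefore need not match those of the study. At an unadjusted p of at most 0.05, edgeR called 2 of the 10, both higher in the knockout, against 24.5% of all genes tested (higher in 13.0%, lower in 11.6%). The 2 of 10 genes without overlap stand beside 30.7% of all genes in either direction and 14.5% with the knockout higher, so the share among the 10 was near the background. DESeq2 called 2 of the 10, Edar and Nfkbia, by adjusted p alone, against 12.6% of all genes, and 1 of the 10, Edar, by the full criterion, against 6.94%. With the replicate number as a block, edgeR called 1 of the 10, Nfkbia, by adjusted p alone, against 9.87% of all genes, and 0 by the full criterion, against 6.09%.

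**Figure D1:**
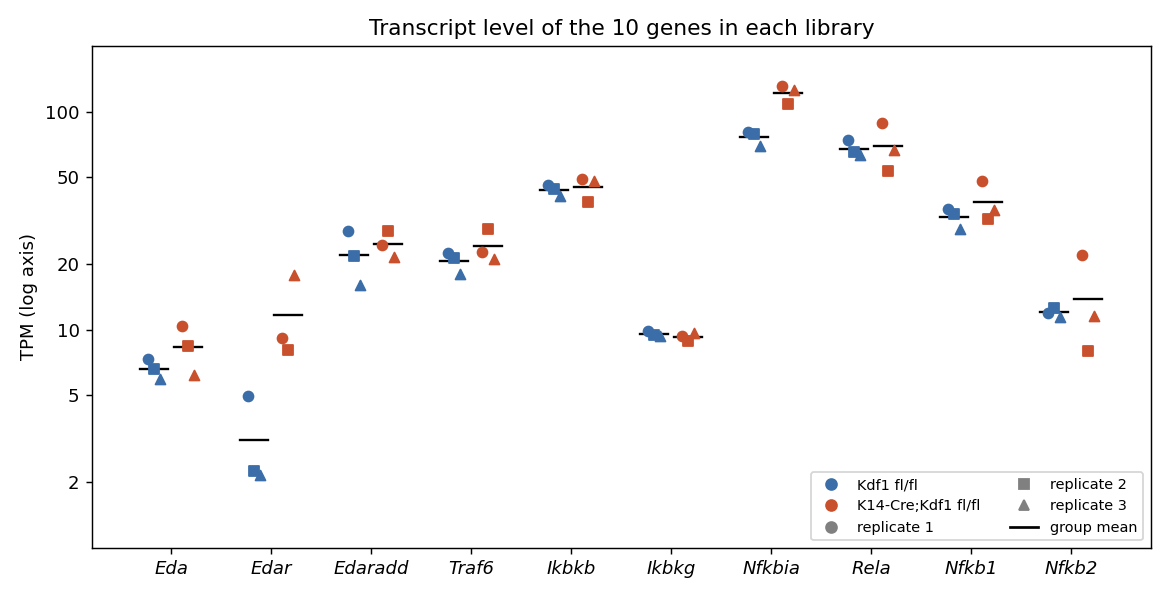
Transcript level (TPM, log axis) of the 10 genes in each library, with controls in blue, knockouts in red, a symbol for each replicate number and a bar at the group mean. Edar and Nfkbia are the genes whose 3 knockout points all lie above the 3 control points, and knockout 3 is the highest for Edar at 17.84 TPM.

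The ligand gene Eda was at 7.33, 6.61 and 5.94 TPM (transcript numbers scaled by length and library size) in controls 1, 2 and 3 and at 10.36, 8.40 and 6.16 TPM in knockouts 1, 2 and 3. Knockouts 1 and 2 were above every control, whereas knockout 3 lay within the control range. The log2 fold change of Eda was 0.25 (SE 0.19, 95% interval -0.18 to 0.69), with an adjusted p of 0.439 by edgeR.

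The receptor gene Edar was at 4.96, 2.24 and 2.16 TPM in controls and at 9.20, 8.06 and 17.84 TPM in knockouts. In raw counts these were 158, 73 and 76 reads against 261, 246 and 543, so Edar was read well above the floor in each library. Control 1 was the highest control and knockout 3 the highest knockout, and the gap between the groups lay between control 1 and knockout 2. The log2 fold change was 1.82 (SE 0.45, 95% interval 0.76 to 2.88), with an adjusted p of 0.0841 by edgeR, 0.0518 by edgeR with the replicate block and 0.00108 by DESeq2. It ranked 439 of 14131 genes from the most to the least positive log2 fold change. Without knockout 3 it was 1.35 with an adjusted p of 0.0794 by edgeR, and over the 6 omissions of a library it was 1.35 to 2.30. Between the groups, Edar was higher in the knockout and the epithelium markers were lower on average. Among the knockouts, knockout 3 had both the highest Edar level and the highest summed epithelium markers. The part of tissue makeup in the Edar level was not tested.

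The adaptor gene Edaradd was at 28.41, 21.86 and 16.01 TPM in controls and at 24.43, 28.44 and 21.54 TPM in knockouts. The highest control and the highest knockout were at nearly the same level. Its log2 fold change was 0.01 (SE 0.21, 95% interval -0.48 to 0.50), with an adjusted p of 0.982 by edgeR, so the data leave room for a change of up to about that size either way. Within a library, the level of Eda over that of Edar was 1.48, 2.95 and 2.75 in controls and 1.13, 1.04 and 0.345 in knockouts, as a ratio of TPM. The ligand transcript was thus above the receptor transcript in 5 libraries and below it in knockout 3. The TPM ratio of Edaradd over Edar was 5.73, 9.76 and 7.41 in controls and 2.66, 3.53 and 1.21 in knockouts. Both ratios move with the Edar level and are no separate evidence.

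Traf6, the ubiquitin ligase that links the receptor complex to kinase activation, was at 22.50, 21.39 and 17.95 TPM in controls and at 22.71, 28.94 and 21.19 TPM in knockouts. Knockout 2 was the highest library and the other knockouts lay close to the controls. The log2 fold change was 0.18 (SE 0.15, 95% interval -0.18 to 0.54), with an adjusted p of 0.499 by edgeR.

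Ikbkb, which encodes the catalytic kinase IKKβ, was at 46.21, 44.22 and 41.09 TPM in controls and at 49.29, 38.37 and 48.06 TPM in knockouts. The knockouts lay on both sides of the controls, and the log2 fold change was 0.00 (SE 0.13, 95% interval -0.30 to 0.31), with an adjusted p of 0.992 by edgeR. Ikbkg, which encodes the regulatory subunit NEMO, was at 9.89, 9.43 and 9.35 TPM in controls and at 9.31, 8.83 and 9.60 TPM in knockouts. It had the smallest spread in TPM of the 10 genes in the knockout, 9.25 ± 0.389 TPM (SD, n = 3), and its log2 fold change was -0.07 (SE 0.12, 95% interval -0.35 to 0.21), with an adjusted p of 0.752 by edgeR.

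The inhibitor gene Nfkbia was at 80.77, 79.10 and 69.86 TPM in controls and at 131.18, 107.93 and 125.18 TPM in knockouts. Every knockout was above every control, and unlike Edar no knockout library stood far from the other knockouts. The log2 fold change was 0.61 (SE 0.12, 95% interval 0.34 to 0.88), with an adjusted p of 0.0637 by edgeR and 0.000373 by DESeq2. With the replicate block the adjusted p was 0.0297 by edgeR. Without knockout 3 the log2 fold change was 0.56 with an adjusted p of 0.0496 by edgeR, and over the 6 omissions of a library it was 0.56 to 0.71.

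Rela, which encodes the transactivating subunit p65, was at 74.14, 65.32 and 62.90 TPM in controls and at 88.54, 53.39 and 66.36 TPM in knockouts. Knockout 1 was the highest and knockout 2 the lowest library of all 6. The log2 fold change was -0.06 (SE 0.17, 95% interval -0.47 to 0.34), with an adjusted p of 0.850 by edgeR, and it turned to 0.01 on the log2(TPM + 1) scale.

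Nfkb1, the gene of p105 and its product p50, was at 35.62, 34.03 and 28.90 TPM in controls and at 48.10, 32.32 and 35.34 TPM in knockouts. Its log2 fold change was 0.14 (SE 0.14, 95% interval -0.20 to 0.48), with an adjusted p of 0.592 by edgeR. Nfkb2, the gene of p100 and p52 in the non-canonical branch, was at 11.92, 12.57 and 11.47 TPM in controls and at 21.90, 7.96 and 11.55 TPM in knockouts. The controls of Nfkb2 lay close together and the knockouts spread above and below them. Its log2 fold change was 0.16 (SE 0.30, 95% interval -0.56 to 0.88), with an adjusted p of 0.780 by edgeR, and without knockout 1 it was -0.14. Nfkb2 was the 1 gene of the 10 whose estimated counts were not whole numbers, 244.46 to 607.74 in the 6 libraries.

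**Figure D2:**
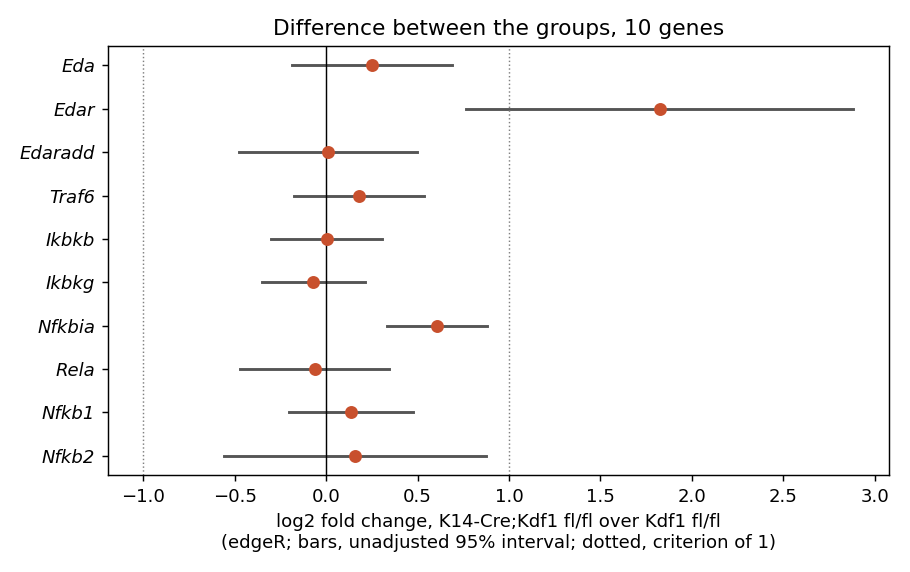
Log2 fold change of the 10 genes, knockout over control, as edgeR estimates (points) with unadjusted 95% intervals (bars), and dotted lines at a change of 1 in either direction. The intervals of Edar (0.76 to 2.88) and Nfkbia (0.34 to 0.88) lie above 0, and the intervals of the other 8 genes cross 0.

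On the scale of length-corrected transcripts, Nfkbia had the highest group mean of the 10 genes in both groups, at 76.6 ± 5.88 TPM (SD, n = 3) in controls and 121 ± 12.1 TPM (SD, n = 3) in knockouts. In controls it was followed by Rela (67.5 TPM), Ikbkb (43.8 TPM), Nfkb1 (32.9 TPM), Edaradd (22.1 TPM), Traf6 (20.6 TPM), Nfkb2 (11.99 TPM), Ikbkg (9.56 TPM), Eda (6.63 TPM) and Edar (3.12 TPM), as group means. Among neighbours in this order, the control ranges overlapped for Nfkbia and Rela and for Edaradd and Traf6. In knockouts Edar, at 11.7 ± 5.35 TPM (SD, n = 3), moved from the last place to the eighth, above Ikbkg (9.25 TPM) and Eda (8.31 TPM). Its knockout range overlapped that of both neighbours, and the knockout range of Nfkbia no longer overlapped that of Rela. The TPM ratio of Nfkbia over Rela was 1.09, 1.21 and 1.11 in controls and 1.48, 2.02 and 1.89 in knockouts.

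The 10 genes had a median log2 fold change of 0.15, with 8 higher and 2 lower on average in the knockout, against a median of -0.00 over all genes tested, of which 49.5% were higher. Outside the 10, lists held 86 further genes of the pathway, of which 84 were in the table and 73 passed the filter. Of these 73, edgeR called 1 higher by the study's criterion and 0 lower, DESeq2 called 11 higher and 1 lower, and edgeR with the replicate block called 7 higher and 2 lower. The shares of all genes past the criterion in these fits were 0.432%, 6.94% and 6.09%, both directions together. At an unadjusted p of at most 0.05, 21 of the 73 were higher and 7 lower in edgeR, against 13.0% and 11.6% of all genes, and their median log2 fold change was 0.21.

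**Figure D3:**
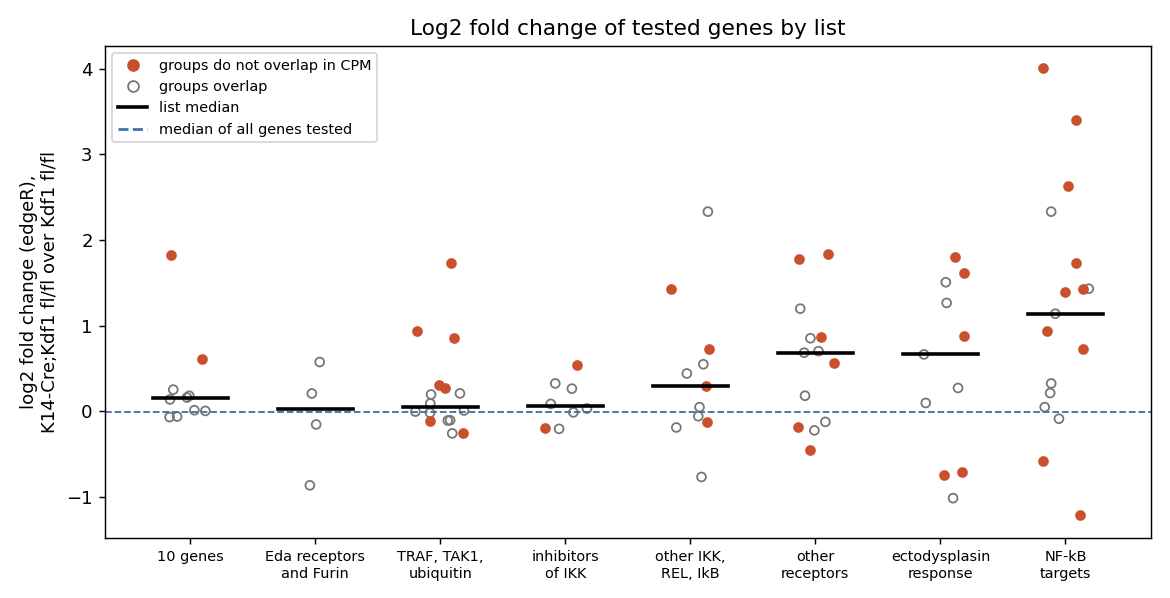
Log2 fold change (edgeR, knockout over control) of each tested gene in 8 lists of the pathway, where filled points mark genes whose groups do not overlap in CPM and black bars are list medians. The medians run from 0.03 for the other ectodysplasin-branch receptors to 1.14 for the NF-κB targets, and the dashed line is the median of all genes tested.

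Other genes at the receptor level of the ectodysplasin branch had overlapping groups. Furin, the protease that releases ectodysplasin from the cell surface, had a log2 fold change of -0.16 (adjusted p 0.601 by edgeR). Eda2r, the receptor of the second ectodysplasin isoform, was at 1.07, 0.787 and 0.442 CPM in controls and 0.886, 2.08 and 0.461 CPM in knockouts, which is near the floor. The related receptors Tnfrsf19 and Relt had log2 fold changes of 0.21 and -0.87, with adjusted p values of 0.492 and 0.189 by edgeR. None of the 4 passed the adjusted p under edgeR, DESeq2 or the block, and 1 of them, Relt, had an unadjusted p of at most 0.05, as had 24.5% of all genes.

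Between receptor and IKK, 16 genes for TRAF proteins, the TAK1 complex and ubiquitin enzymes had a median log2 fold change of 0.05. At an unadjusted p of at most 0.05 in edgeR, 2 were higher and 1 lower, and this share lies below the 24.5% of all genes. The groups did not overlap in CPM for 7 of the 16 (5 higher, 2 lower), a share above the 30.7% of all genes. Traf1, a signalling adaptor, was at 1.32, 1.03 and 0.695 CPM in controls and 4.81, 1.89 and 3.43 CPM in knockouts, with an adjusted p of 0.0896 by edgeR, 0.0173 by DESeq2 and 0.0479 with the block. Birc3, an inhibitor of apoptosis with ubiquitin ligase activity, had a log2 fold change of 0.93 (adjusted p 0.156 by edgeR), and Traf5 and Sharpin had 0.85 and 0.30. The deubiquitinases and other inhibitors of IKK signalling had a median of 0.06 over 8 genes, with Tnip2 at 0.54, Tnfaip3, the gene of A20, at 0.32, Tnip1 at 0.26 and Tax1bp1 at -0.21 on the log2 scale, and edgeR's adjusted p values of these 4 were 0.173 to 0.534.

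Among the remaining IKK-type kinases, REL subunits and IκB proteins, 11 genes had a median log2 fold change of 0.30, with 4 higher and 0 lower at an unadjusted p of at most 0.05 in edgeR, against 13.0% and 11.6% of all genes. Bcl3, an atypical IκB protein that acts in the nucleus, was at 0.942, 1.45 and 0.695 CPM in controls and at 9.68, 1.45 and 4.55 CPM in knockouts. Its groups overlapped, with knockout 2 just below control 2, and the adjusted p was 0.114 by edgeR and 0.0127 by DESeq2. Nfkbiz, another nuclear IκB protein, was at 8.60, 7.63 and 8.40 CPM in controls and 39.9, 14.3 and 11.9 CPM in knockouts, with an adjusted p of 0.127 by edgeR and 0.0202 by DESeq2. Relb, the partner of p52, had a log2 fold change of 0.73 (adjusted p 0.137 by edgeR), and the kinase gene Ikbke had -0.77 (adjusted p 0.207 by edgeR).

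Other receptors that signal to NF-κB had a median log2 fold change of 0.68 over 13 genes, with 6 higher and 1 lower at an unadjusted p of at most 0.05 in edgeR (all genes 13.0% and 11.6%). Tnfrsf11a, the gene of the osteoclast receptor RANK, was at 1.13, 2.42 and 1.71 CPM in controls and 9.68, 4.53 and 4.61 CPM in knockouts, with an adjusted p of 0.0815 by edgeR and 0.00398 by DESeq2. Tlr4, a receptor for bacterial lipopolysaccharide, had a log2 fold change of 1.78, Tnfrsf1b 1.20 and Tlr2 0.87, with adjusted p values of 0.127, 0.219 and 0.109 by edgeR. Of the 13 receptors, 9 were highest in knockout 1, the library with the highest immune and endothelium markers, against 20.5% of all genes tested. The part of those cell types in the receptor levels was not tested.

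Genes known to respond to ectodysplasin in skin appendages and teeth lay on both sides of 0. Of 15 listed, 11 were tested, with 3 higher and 2 lower at an unadjusted p of at most 0.05 in edgeR, compared with 13.0% and 11.6% of all genes. The median log2 fold change was 0.66. The groups did not overlap in CPM for 5 of the 11, 3 higher and 2 lower in the knockout, against 30.7% of all genes. With the replicate block, edgeR called 2 higher and 1 lower by the study's criterion, against 6.09% of all genes. The response genes named here, most of them by the size of their change, were all higher on average, so the lower ones are not shown. Fst, which encodes the activin inhibitor follistatin, was at 11.9, 12.3 and 6.25 CPM in controls and 31.1, 47.1 and 28.2 CPM in knockouts. Ccn2, a matrix-associated growth regulator, was at 74.7, 47.5 and 36.9 CPM in controls and 190, 138 and 157 CPM in knockouts. Every knockout was above every control for both genes. Fst had a log2 fold change of 1.81 and Ccn2 of 1.61, with adjusted p values of 0.0582 and 0.0556 by edgeR, and both passed with the block (0.00695 and 0.00671) and under DESeq2 (5.51e-06 and 1.28e-06).

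Of the 11 tested response genes, 3 were highest in knockout 3, as Edar was, and 4 in knockout 1, whereas 18.4% and 20.5% of all genes were highest in these libraries, so the share in knockout 3 was near the background. Wnt10b, a Wnt ligand of placodes, was at 38.6, 7.15 and 9.60 CPM in controls and 31.5, 46.2 and 79.7 CPM in knockouts. Ltb, which encodes lymphotoxin β, was at 2.20, 0.848 and 0.316 CPM in controls and 1.39, 1.20 and 5.54 CPM in knockouts. The groups of both overlapped, with adjusted p values of 0.216 and 0.386 by edgeR. Shh, the epithelial hedgehog ligand, which also stands in the list of epithelium markers, was at 908, 645 and 913 CPM in controls and 673, 550 and 1753 CPM in knockouts. Dkk4, a Wnt inhibitor that did not pass the filter, was at 0.753, 0 and 0 CPM in controls and 0.253, 0.503 and 3.49 CPM in knockouts. Shh and Dkk4 were chosen after their values were seen, and the pattern is that of 1 library, so it carries no test.

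Genes widely used as NF-κB targets in inflammation and survival had a median log2 fold change of 1.14 over 17 tested of 26 listed, with 10 higher and 2 lower at an unadjusted p of at most 0.05 in edgeR, beside 13.0% and 11.6% of all genes. Traf1, Birc3, Tnfaip3, Relb, Nfkbie, Nfkbiz and Bcl3 of this list were also counted in the lists above. Lcn2, the iron-binding protein lipocalin 2, rose from 0.502, 0.242 and 0.189 CPM in controls to 8.54, 3.71 and 3.10 CPM in knockouts, with a difference of 4.01 on the log2 scale (SE 0.59) and an adjusted p of 0.0498 by edgeR, and it was the 1 pathway gene past the criterion. Its control levels were near the floor, so the size of the change depends on few reads. Mmp9, a matrix metalloproteinase of osteoclasts and leukocytes, was at 46.1, 33.6 and 15.6 CPM in controls and 761, 148 and 104 CPM in knockouts, with an adjusted p of 0.0841 by edgeR and 0.0141 with the block. Vcam1, an adhesion molecule of activated endothelium, was at 3.01, 4.85 and 0.821 CPM in controls and 36.1, 12.8 and 5.21 CPM in knockouts, with an adjusted p of 0.125 by edgeR and 0.0277 with the block.

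The summed NF-κB target level was 306 to 344 CPM in controls and 1238, 427 and 416 CPM in knockouts 1, 2 and 3. Mmp9 alone gave most of the sum in knockout 1, and without Mmp9 the sums of knockouts 2 and 3 would lie within the control range. Of the 17 targets, 12 were highest in knockout 1, against 20.5% of all genes tested. All 10 immune markers and all 9 endothelium markers were also highest in knockout 1. Of the 10 genes, 4 were highest in the same library in CPM, namely Eda, Rela, Nfkb1 and Nfkb2. Nfkbia was highest in knockout 3 in CPM and in knockout 1 in TPM. Nfkbia was at 89.8, 80.1 and 98.0 CPM in knockouts 1, 2 and 3, against 56.9 to 61.5 CPM in controls. Edar was at 35.8 CPM in knockout 3, and at 16.5 and 15.5 CPM in knockouts 1 and 2, against 4.42 to 9.92 CPM in controls. The part of tissue makeup in the levels of Nfkbia, Edar and the other genes was not tested.

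**Figure D4:**
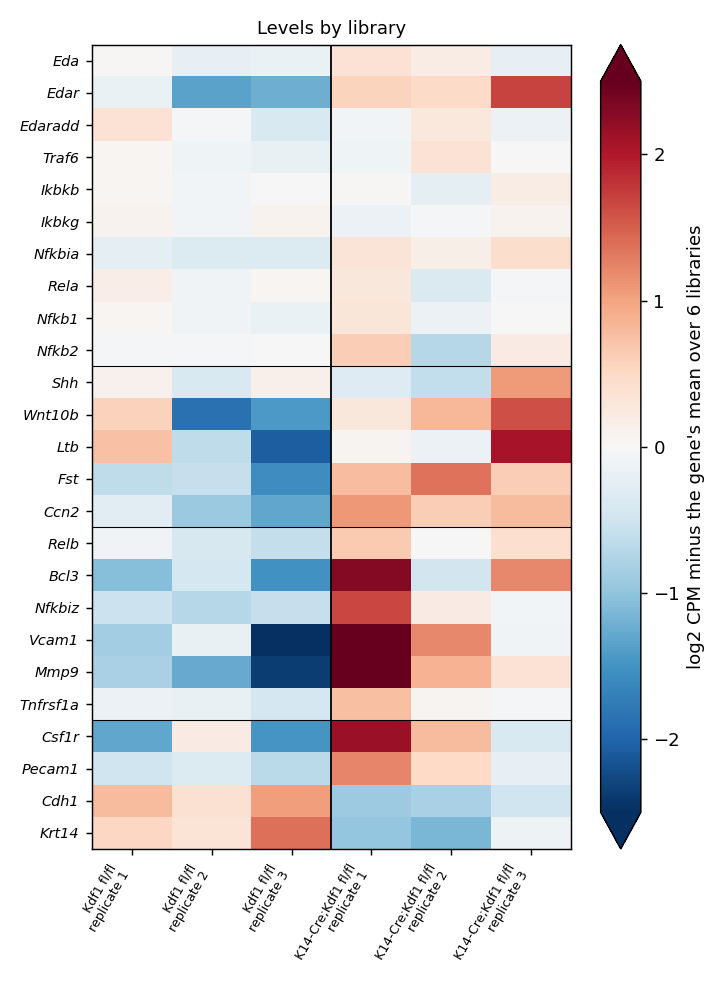
Level of each gene in each library, as log2 CPM minus the gene's mean over the 6 libraries, from blue (lower) to red (higher), with colours capped at 2.5. From top to bottom the blocks hold the 10 genes, genes that respond to ectodysplasin, other NF-κB genes and cell type markers, and knockout 1 is the reddest column for Bcl3, Nfkbiz, Vcam1 and Mmp9, as for the immune marker Csf1r and the endothelium marker Pecam1, while Edar is reddest in knockout 3.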

How the data were processed

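RNA-seq libraries of the IEE were grouped by the labels, 3 per genotype. BWA 0.7.12, Picard 2.6.0 and StringTie are named in the submitters' processing notes, without roles, and the genome build and annotation are not given in the sources used here. The authors deposited 1 table of all genes. The deposited estimated counts are the authors' unnormalised read numbers per gene, and 10.9% to 11.5% of the values in a library are not whole. The deposited TPM values are scaled by transcript length to an equal total. The deposited FPKM values and the authors' average columns were not used.

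Estimated counts were rounded to whole numbers. Genes were filtered by filterByExpr of edgeR 4.0.16 (R 4.3.3), which kept 14131, scaled by TMM (factors 0.950 to 1.03) and compared by robust quasi-likelihood F-tests, two-sided, with Benjamini-Hochberg adjustment over all genes tested. CPM used TMM-scaled library sizes. The biological coefficient of variation was 25.4%. On counts simulated over 14023 genes, the adjusted p alone called 42 of 100 genes changed by 1 on the log2 scale. It called 79 of 100 changed by 2, with 11 false calls. The variance between replicates was 35.4 to 77.3 times that of sampling, and none was a duplicate.

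Same-numbered libraries of the 2 groups deviated together (correlations across genes of 0.135, 0.324 and 0.499). This check used the same values as the fits, so it does not establish a pairing. Among differently numbered libraries, control 2 and knockout 1 also correlated, at 0.144, above the 0.135 of the first pair, and the labels name no shared litter or day. The replicate number was used as a block in an alternative fit only. Other alternatives were DESeq2 1.42.0, DESeq2's size factors, upper quartile and library-size scaling, no filter, a stricter filter (a minimum of 10 counts per library), limma-voom (limma 3.58.1), limma on log2(TPM + 1) and log2(TPM + 0.1), and the omission of each library. The p-values measure the spread between these libraries.

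The 10 genes, the pathway lists and the marker lists were chosen with earlier results of these data known. Named were Kdf1, the 10 genes, any pathway gene past the criterion, and from each list up to 4 tested genes with the largest absolute log2 fold change and at least 1 CPM in the higher group. Shh, Dkk4, Csf1r, Pecam1 and the further genes shown in the heat map of levels by library were chosen after their values were seen. Promoter windows were matched by gene identifier.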

Additional observations from a re-analysis of the deposited data

How the results depend on the processing

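Over the 10 genes, no alternative turned the direction of Eda, Edar, Traf6, Nfkbia or Nfkb1. Genes close to 0 did change sign: Ikbkb was -0.0078 without the filter, -0.0059 under limma-voom, -0.0055 with the replicate block and -0.0729 to 0.13 over the omissions of a library on the log2 scale, and Rela was 0.01 on both log2 TPM scales (0.0143 and 0.0141). Over the omissions, log2 fold changes were -0.15 to 0.23 for Edaradd, -0.14 to 0.48 for Nfkb2, -0.12 to 0.0013 for Ikbkg and -0.22 to 0.11 for Rela. None of these 5 genes was called under any alternative.

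The number of the 10 past the criterion was 0, and 1 under DESeq2. By adjusted p alone it was 0, 2 under DESeq2, 1 with the replicate block and 0 to 1 over the omissions, where the 1 call came without knockout 3. Over the alternatives that left no library out, other than DESeq2 and the block, edgeR and limma gave adjusted p values of 0.0812 to 0.107 for Edar and 0.0625 to 0.0767 for Nfkbia. Over the omissions they were 0.0794 to 0.303 and 0.0496 to 0.269. The cause of these differences was not tested.

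Over all genes, 61 passed the criterion. There were 980 under DESeq2, 860 with the replicate block, 103 without the filter, 16 on log2(TPM + 1), 9 by library size, 7 with DESeq2's size factors, and 6 under limma-voom and under the stricter filter. Omissions gave 1 to 465, the last without knockout 3, with 16 without control 2 and 1 for each other library. For the 73 other pathway genes, 1 passed the criterion and 1 the adjusted p alone. These became 12 and 16 under DESeq2, 9 and 12 with the block, 2 and 2 without the filter, and 0 and 0 under DESeq2's size factors, library size, the stricter filter, limma-voom and log2(TPM + 1). Omissions gave 0 to 3 and 0 to 4, the highest without knockout 3 and 0 for every other library, so the call of Lcn2 depends on the setting. The cause was not tested. At this depth and with 3 libraries a group, the simulation called 42 of 100 genes that differed by 1 on the log2 scale. It changed few genes, none with low counts, and used the adjusted p alone, so this share need not hold for these data. A call that misses the threshold therefore does not show that a gene was alike in both groups.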
